A study of Mus musculus with 10 samples.

Results

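The milk proteins are the secreted and membrane products by which a mammary epithelial cell shows that it has gone through secretory differentiation, and 9 of their genes were followed here across 10 mouse mammary tumors. The members were the 4 caseins Csn1s1, Csn1s2a, Csn2 and Csn3, the whey proteins Wap and Lalba, the secreted mucin-like protein Glycam1, and Btn1a1 and Muc1, which sit in the membrane around milk fat globules and on the apical surface of the cell. They were found by gene name on the array, older casein names and synonyms included, and all 9 genes were present, on 12 of the 41174 probes tested. No measured value entered the rule for members, but they were chosen with earlier results of these data known.

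Each tumor was measured on 1 Agilent mouse array that compares a red and a green signal at every probe. The labels name 5 tumors as sarcomatoid, a spindle-shaped form of carcinoma (4 sarcomatoid adenocarcinomas, and tumor 594 as sarcomatoid carcinoma), and 5 as adenocarcinoma, which keeps a glandular form. Sarcomatoid tumors 323, 307 and 594 came from the mammary gland, and the other two, 323 lung and 307 lung, were transplanted tumors in lung. Adenocarcinomas 105, 131, 470, 17 and 85 all came from the mammary gland. By the study's methods the mice were on a C57BL/6 background, and the adenocarcinomas carried an activated Pik3ca allele (H-to-R in the kinase domain) and a mutant Trp53 allele (R-to-H in the DNA-binding domain), both switched on by Cre. The promoter driving Cre was MMTV, active in mammary and some other epithelia and responsive to steroid hormones. Of the sarcomatoid primaries, 1 carried both alleles, 1 carried the Pik3ca allele with a missense Trp53 mutation that had arisen in the tumor, and 1 carried the Trp53 allele alone. The labels do not say which tumor number had which genotype. The lung tumors were each grown from a cell line of a primary tumor after injection into the tail vein, so the sarcomatoid group holds 3 tumor origins. Age, parity and hormonal state of the mice were not given in the sources used here, and no normal or lactating gland was among the samples.

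In the gland, milk protein genes are silent or low in the virgin animal and rise in pregnancy, in a known order in which caseins come before Wap and Lalba. Prolactin acts through its receptor Prlr and the kinase Jak2 on the transcription factors Stat5a and Stat5b, which together with glucocorticoid receptor, Elf5 and other factors switch these genes on. Lalba is the regulatory subunit of lactose synthase, and its late rise goes with copious milk secretion.

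The 4 casein genes lie in 1 cluster, and their probes fell within 245 kb of chromosome 5 (build mm7, bases 87619071 to 87864389). Lalba and Glycam1 were both on chromosome 15, Wap on chromosome 11, Muc1 on chromosome 3 and Btn1a1 on chromosome 13 in the same build. Promoter windows from 250 bases before to 50 bases after a gene's start were taken from RefSeq (GRCm38.p6), where 7 of the 9 members were matched, Csn3 and Btn1a1 being the exceptions. The palindrome TTCNNNGAA, the letters that Stat5 proteins recognise and which reads the same on both strands, was found in the windows of Csn1s1, Csn2, Csn1s2a and Glycam1, against 8.3% of all 32851 windows. The 3 palindromes that lie before the start are shown, in capitals and with 8 bases on each side.
Csn1s1: tgtaacaaTTCTTAGAAtttatgta
Csn2: acgtagacTTCTTGGAAttgaaggg
Glycam1: caactcatTTCCCAGAAacaccaat
The first run is chr5:87666100-87666124 on the plus strand, the Csn2 run is chr5:87699502-87699526 on the minus strand, and the Glycam1 run is chr15:103565210-103565234 on the minus strand. In both caseins the palindrome begins at a like distance before the start, at base -100 in Csn1s1 and base -93 in Csn2, and in Glycam1 it begins at base -145. The match in Csn1s2a lies after the start, from base 20 to base 28. The glucocorticoid receptor half-site AGAACA, searched on both strands and sharing no base with these matches, was found in the Csn1s2a window alone among the 7, against 19% of all windows. The windows of Wap, Lalba and Muc1 held neither run of letters.

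Values below are log2 ratios of red over green after background correction and loess normalization, and red was read as the tumor and green as a common reference. The dye label names Cy3, the green dye, as the tumor, which would turn the sign of every ratio and difference. The reading of red as tumor is likely and rests on the spread of both signals and on the study's account. In that account epithelial genes are lower in the sarcomatoid tumors. Green log2 signals varied less between arrays than red ones (mean SD 0.732 against 0.973 over all probes, and 1.26 against 2.71 over the members). Each column of the authors' normalized table had its highest correlation with red over green on the matching array (across probes, r between 0.841 and 0.924). That correlation shows how the table was made and cannot alone tell which dye carried the tumor. The correction adds a constant of 50 to both signals, so ratios of dim probes are drawn towards 0, and the authors' table mostly gives larger values for the same probes. In bulk tumor RNA, fewer secretory cells and less RNA per cell cannot be told apart.

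**Figure D1:**
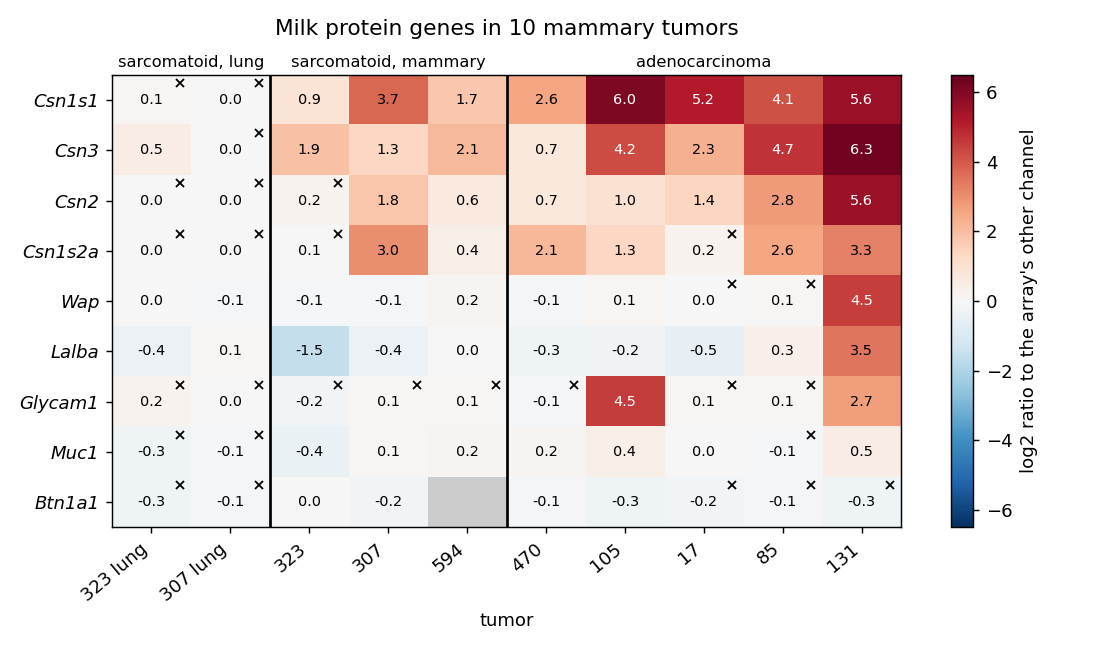
Heat map of the log2 ratio of the 9 genes (rows, brightest probe of each) in the 10 tumors (columns), with a cross where the red signal was not well above background and grey where an outlier spot was left out. Csn1s1 was raised in all 5 adenocarcinomas, Wap and Lalba in tumor 131 alone, and both lung tumors lay between -0.38 and 0.46 throughout.

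Csn1s1 encodes the alpha-s1 casein, one of the main proteins of the milk micelle. Its log2 ratio was 6.04 in tumor 105, 5.62 in tumor 131, 2.56 in tumor 470, 5.17 in tumor 17 and 4.14 in tumor 85, so every adenocarcinoma was well above the reference. In the sarcomatoid tumors it was 0.89 in tumor 323, 0.08 in 323 lung, 3.72 in tumor 307, -0.02 in 307 lung and 1.74 in tumor 594. In these values the groups overlapped through tumors 307 and 470 only, sarcomatoid 307 lying above adenocarcinoma 470. In the authors' table the overlap was wider. Tumor 307 (6.75) lay there above tumors 470 (5.24), 85 (5.15) and 17 (6.47), and below tumors 105 (6.79) and 131 (6.76). The processed red signal, in scanner units, ran from 1181 to 30426 in the adenocarcinomas, and was 2942 in tumor 307, 551 in tumor 594 and 241 in tumor 323.

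The mean Csn1s1 log2 ratio was 4.71 ± 1.39 (SD, n = 5) in adenocarcinoma and 1.28 ± 1.54 (SD, n = 5) in sarcomatoid tumors. The difference was -3.43 (SE 0.84) on the log2 scale, with both lung arrays not well above background, and -2.59 (limma adjusted p = 0.577) on the mammary arrays alone. In limma's test across all probes the adjusted p was 0.377 (unadjusted 0.0024), so Csn1s1 did not pass the threshold of 0.05. The exact two-sided permutation test of this 1 value gave p = 0.0159, where the smallest p it allows is 0.00794, without adjustment for the 9 members tested. With 1 value per tumor number, so that 323 and 307 each count once, the exact permutation p was 0.0357, where the smallest is 0.0179.

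Csn3 encodes kappa casein, which coats and stabilises the micelle. Its log2 ratio was 4.22 in tumor 105, 6.27 in tumor 131, 0.69 in tumor 470, 2.34 in tumor 17 and 4.69 in tumor 85. In the sarcomatoid tumors it was 1.93 in tumor 323, 0.46 in 323 lung, 1.32 in tumor 307, -0.03 in 307 lung and 2.12 in tumor 594. Apart from tumor 470, every adenocarcinoma lay above every sarcomatoid tumor, and tumor 470 fell below all 3 mammary sarcomatoid tumors. In the authors' table this separation did not hold, adenocarcinoma 17 (2.82) lying below sarcomatoid tumors 594 (4.85) and 323 (4.38). The log2 difference was -2.48 (SE 0.96, limma adjusted p = 0.455, exact permutation p = 0.0556).

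Csn2 encodes beta casein, the most abundant protein of mouse milk along with the alpha caseins. Its log2 ratio was 0.98 in tumor 105, 5.61 in tumor 131, 0.66 in tumor 470, 1.41 in tumor 17 and 2.78 in tumor 85. The sarcomatoid tumors gave 0.21 in tumor 323, -0.03 in 323 lung, 1.81 in tumor 307, 0.02 in 307 lung and 0.62 in tumor 594. Tumor 131 stood above all others, and tumor 307 was above 3 of the 5 adenocarcinomas. The log2 difference was -1.76 (SE 0.88, limma adjusted p = 0.559, exact permutation p = 0.0794), and without tumor 131 it was -0.93.

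Csn1s2a, the alpha-s2-like casein formerly called gamma casein, divided the tumors differently. Its log2 ratio was 1.34 in tumor 105, 3.28 in tumor 131, 2.14 in tumor 470, 0.22 in tumor 17 and 2.56 in tumor 85. Among the sarcomatoid tumors it was 3.0 in tumor 307, 0.37 in tumor 594, 0.05 in tumor 323, -0.04 in 323 lung and 0.04 in 307 lung. Tumor 307 was thus second only to tumor 131 among all 10, while adenocarcinoma 17, with Csn1s1 at 5.17, had a red Csn1s2a signal that was not well above background. The log2 difference was -1.22 (SE 0.71, limma adjusted p = 0.633, exact permutation p = 0.143).

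**Figure D2:**
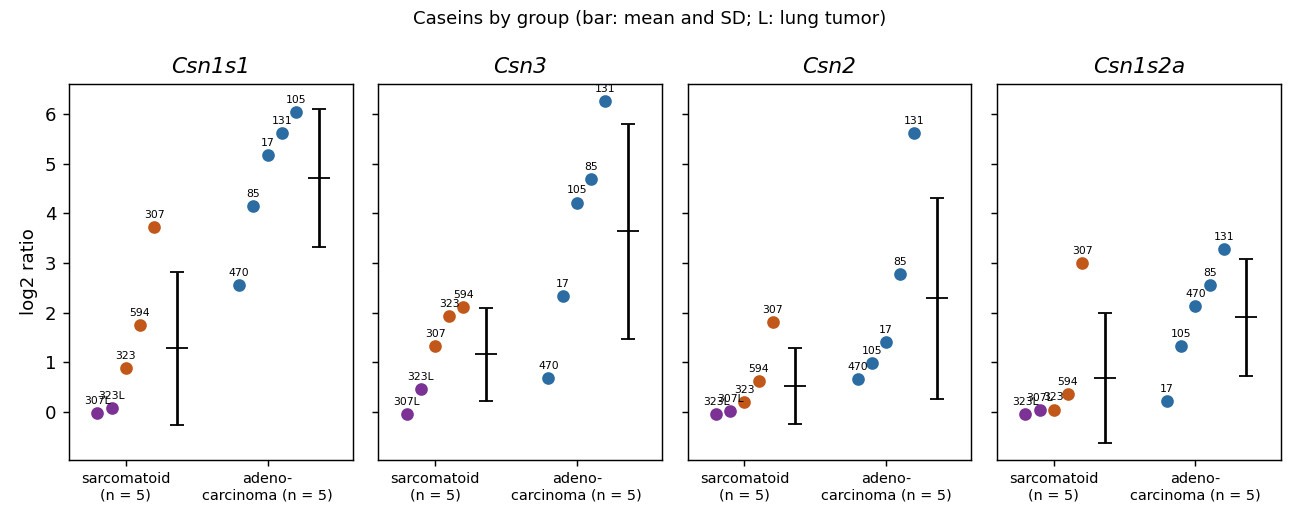
Log2 ratio of each casein gene in every tumor (points, labelled by tumor number, L for lung) with the group mean and SD (bars, n = 5 each). In these values the Csn1s1 groups overlap only where tumor 307 (3.72) lies above tumor 470 (2.56), and the other caseins overlap more widely. In the authors' table the Csn1s1 overlap is wider.

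The balance between caseins also differed from tumor to tumor. In tumor 105 the highest member was Csn1s1 (log2 ratio 6.04) and Csn2 was at 0.98, while in tumor 131 Csn2 (5.61) and Csn1s1 (5.62) were nearly equal. The mean log2 ratio over the 4 caseins fell from 5.19 in tumor 131 through 3.54 in tumor 85, 3.15 in tumor 105 and 2.28 in tumor 17 to 1.51 in tumor 470. In the sarcomatoid tumors it was 2.46 in tumor 307, 1.21 in tumor 594, 0.77 in tumor 323, 0.12 in 323 lung and 0.00 in 307 lung. Each array is 1 tumor, so neighbours in this order have no replicate error of their own. Ratios of different probes also differ in their reference level, and such an order says nothing of which casein was most abundant.

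Wap, the whey acidic protein, was found raised in tumor 131 alone. The brightest of its 2 probes gave a log2 ratio of 4.47 there, and between -0.10 and 0.18 in the other 9 tumors. The other probe showed the same contrast in the processed red signal, 35519 in tumor 131 against 6.2 to 63.9 elsewhere. Lalba, alpha-lactalbumin, followed the same tumor, with a log2 ratio of 3.46 in tumor 131 and -1.53 to 0.31 in the other 9, the lowest being tumor 323 (red signal 145, green signal 745). Tumor 131 therefore held both of the members that come late in pregnancy together with all 4 caseins and Glycam1, 7 of the 9 members above a log2 ratio of 2.

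The green signal on the array of tumor 131 was raised at the same probes, to 974 for the second Wap probe against at most 62.2 on the other arrays. For Lalba it was 791 in tumor 131 but also 745 in tumor 323, and 86.6 to 246 elsewhere. The source of the raised green signal was not tested. The group differences of both whey proteins rested on tumor 131. For Wap the log2 difference was -0.95 (SE 0.81, limma adjusted p = 0.766, exact permutation p = 0.19) with it and -0.06 without it. For Lalba it was -0.98 (SE 0.72, limma adjusted p = 0.724, exact permutation p = 0.294) with it and -0.25 without it.

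Glycam1 was raised in 2 adenocarcinomas, with a log2 ratio of 4.54 in tumor 105 and 2.70 in tumor 131. In the other 8 tumors it lay between -0.16 and 0.24, and its red signal was not well above background on any of them. The red signal was 7820 in tumor 105 and 826 in tumor 131. Because no sarcomatoid array measured it, the group comparison in the red channel alone gives a bound, at least 3.1-fold higher in adenocarcinoma (mean log2 signals 7.92 and 6.29), in which 3 of the 5 adenocarcinoma arrays were themselves not well above background. On the log2 ratio scale, where green enters too, the difference was -1.41 (SE 0.85, limma adjusted p = 0.646, exact permutation p = 0.27), and -0.64 without tumor 105.

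Glycam1 is a milk whey component and also a product of the high endothelial venules of lymph nodes, so markers of node tissue are given beside it. Over 5 other genes of that list the mean log2 ratio was 1.44 in tumor 105 and 0.16 in tumor 131, and -0.16 to 0.87 in the other 8 tumors. In tumor 105 the chemokine Ccl19 stood at 3.90, while the venule genes Chst4 and Madcam1 were at -0.12 and -0.33. The mean over 8 B cell genes was -0.08 in tumor 105 and -1.21 in tumor 131, and ran from -1.43 to -0.82 in the others. The means of both lists were therefore highest in tumor 105, and in tumor 131 they lay within the range of the others. Not all node markers were raised in tumor 105, Chst4 and Madcam1 being the exceptions. The part of node tissue in the Glycam1 signal was not tested.

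**Figure D3:**
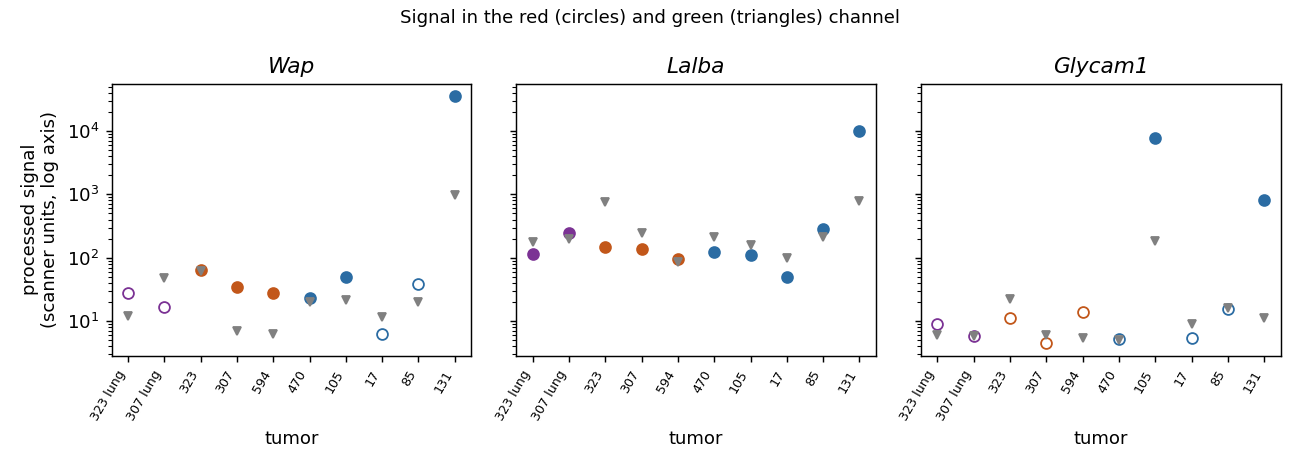
Processed red (circles, tumor) and green (grey triangles) signals in scanner units on a log axis, for the second Wap probe and the Lalba and Glycam1 probes in each of the 10 tumors, with open circles where red was not well above background. Red Wap and Lalba signals are far above the other arrays in tumor 131 (35519 and 10131), and red Glycam1 in tumors 105 (7820) and 131 (826).

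Muc1 and Btn1a1 moved little. Muc1, the membrane mucin of luminal epithelium, had log2 ratios of 0.36, 0.47, 0.16, 0.00 and -0.05 in tumors 105, 131, 470, 17 and 85, and -0.42 to 0.16 in the sarcomatoid tumors. The log2 difference was -0.29 (SE 0.14, limma adjusted p = 0.554, exact permutation p = 0.0873), the groups overlapped, and the other Muc1 probe had the same sign. Btn1a1, butyrophilin, which is needed for the release of milk fat globules, ranged from -0.27 to 0.02, with tumor 594 left out because its spot was an outlier. Its 2 probes gave differences of opposite sign, 0.06 (SE 0.09, limma adjusted p = 0.878, exact permutation p = 0.397, n = 4 against 5) for the brighter and -0.14 for the dimmer, which was well above background on 1 array of 10. Tumor 131, with 7 raised members, showed no raised Btn1a1 ratio at the brighter probe (-0.26).

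Across the members, 8 of 9 had a lower mean in the sarcomatoid tumors, with a median log2 difference of -1.22, while over all 41174 probes 51.3% were lower and the median was -0.01. None of the 9 passed an adjusted p of 0.05, and 0% of all probes were called lower by that rule. At an unadjusted p of 0.05, Csn1s1 and Csn3 were lower, 2 of 9 members against 5.1% of all probes. No member had groups that did not overlap.

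Tumor 470 decided the call for Csn1s1. This array, labelled adenocarcinoma, had a low mean over 16 epithelial genes such as Epcam, Krt8 and Krt18. The mean log2 ratio was -0.82, against 2.79 to 3.21 in the other adenocarcinomas. Not all 16 were low, and tumor 470 had Spint1 at 3.41, within the 3.40 to 3.90 of the other adenocarcinomas. It had Cdh1 at 1.74 and Cldn3 at 1.01, above the reference but below the other adenocarcinomas. Its mean over 8 myeloid genes was 2.46 and over 10 mesenchymal genes 0.77, against at most 1.51 and -0.63 in the other adenocarcinomas and 1.97 to 2.94 and -0.57 to 1.22 in the sarcomatoid tumors. All 8 myeloid and all 10 mesenchymal genes had a higher mean in the sarcomatoid group (median log2 differences 1.57 and 1.14), none past the adjusted threshold, and the part of these cells in the casein differences was not tested. Skeletal muscle genes were at a mean of 3.05 in tumor 470 and 4.99 in tumor 105. Without tumor 470, Csn1s1 differed by -3.96 (SE 0.77, limma adjusted p = 0.0466), 1 of 9 members called lower where 0.828% of all probes were. Csn3 then differed by -3.22 (SE 0.76, limma adjusted p = 0.0821). In the authors' table without the same tumor the Csn1s1 difference was -3.61 with an adjusted p of 0.192, so the call did not hold there.

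The arrays were read in 3 scan batches, and 2 of them held both groups. Within the batch of tumors 307, 594, 105 and 470 the log2 difference was -1.57 for Csn1s1, -0.73 for Csn3, -0.05 for Csn1s2a and 0.40 for Csn2, the last with the sign turned. Within the batch of both lung tumors and tumors 131, 17 and 85 it was -4.95 for Csn1s1, -4.22 for Csn3, -2.02 for Csn1s2a and -3.27 for Csn2. The 2 batches differ in which tumors they hold, and batch and tumor cannot be told apart in that contrast. With scan batch as a term the Csn1s1 difference was -3.41. Tumor 323 was alone in its batch and adds nothing to that value, which is a weighted mean of the differences within the other 2 batches (-1.57 and -4.95). It is therefore no separate check on batch.

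The caseins were at or near background on the lung arrays. On both lung arrays the red signals of Csn1s1, Csn1s2a, Csn2, Glycam1, Muc1 and Btn1a1 were not well above background, and Csn3 was measured in 323 lung alone, at a log2 ratio of 0.46. Lalba and the brightest Wap probe were well above background on both, while the other Wap probe was so on neither. In 323 lung and 307 lung the log2 ratios were -0.03 and -0.10 for the brightest Wap probe and -0.38 and 0.07 for Lalba. Lalba was higher in the lung tumor of both pairs, by 1.15 for 323 and 0.46 for 307, and the fitted difference was 0.48 (SE 1.09, limma adjusted p = 0.969). From the mammary tumor to the lung tumor of the same number, the Csn1s1 log2 ratio differed by -0.81 for 323 and by -3.74 for 307, and that of Csn3 by -1.47 and -1.36. For 307 the differences were -1.80 for Csn2 and -2.96 for Csn1s2a. For 323 these 2 genes were not well above background in either tumor, so their change was not measured. Except for Csn3 in 323 lung, the lung side of each casein value is a signal not well above background, and these are single pairs with no test.

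Against all 3 mammary sarcomatoid tumors, the mean Csn1s1 log2 ratio was 0.03 ± 0.07 (SD, n = 2) in lung and 2.12 ± 1.45 (SD, n = 3) in mammary tumors, a difference of -2.09 (SE 1.07, limma adjusted p = 0.762). In the red channel alone, where the lung value is a bound, the mean log2 signals of 8.63 and 6.35 make Csn1s1 at least 4.86-fold higher in the mammary tumors. The red-channel bound was at least 2.51-fold for Csn1s2a and at least 2.09-fold for Csn2, each measured on 2 of the 3 mammary arrays. On the log2 ratio scale the differences of these genes were -1.14 and -0.89 (limma adjusted p = 0.879 and 0.946). These values rested on tumor 307, without which the log2 ratio differences fell from -2.09 to -1.29 for Csn1s1, from -1.14 to -0.205 for Csn1s2a and from -0.89 to -0.42 for Csn2. For Muc1 and Btn1a1 the bounds were 1.24-fold and 1.09-fold, and limma's test of their log2 ratios gave adjusted p = 0.968 and 0.947. Csn3 differed by -1.58 (SE 1.35, limma adjusted p = 0.872). None of the 9 members was called, where 0.00243% of all probes were called lower, and at an unadjusted p of 0.05 none of the members and 3.28% of the probes were lower. The exact permutation test cannot go below p = 0.1 with 2 arrays against 3.

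The lung arrays also had low epithelial genes, a mean log2 ratio of -1.20 on both, against 0.85 to 1.39 in the 3 mammary sarcomatoid tumors. Genes of another tissue marked 1 of the lung arrays. The mean log2 ratio of 8 salivary gland genes was 3.10 in 323 lung, all well above background. Amy1 (7.97) and Dcpp1 (6.53) led the list, while Lpo was at 0.56, Prol1 at 0.33 and Bhlha15 at -1.59. The salivary gland mean was -0.17 in 307 lung, -0.20 in tumor 323 and -0.13 to 0.95 in the adenocarcinomas. The part of that tissue in the values of 323 lung was not tested. Lung epithelial genes were not raised on either array, at means of -0.04 in 323 lung and -0.15 in 307 lung over 8 genes, with the surfactant gene Sftpc at 0.00 and 0.61. Both lung arrays were in the same scan batch, which held no mammary sarcomatoid array, so no value within a batch could be had. A fit with scan batch as a term rests on the adenocarcinomas to bridge the batches. Mammary tumor 323, alone in its batch, adds nothing to the difference there. In that fit the lung minus mammary difference was -3.38 for Csn1s1, -3.49 for Csn3, -3.67 for Csn2 and -1.96 for Csn1s2a, with limma adjusted p between 0.877 and 0.997. In the authors' table the same contrast gave -4.51 for Csn1s1, -3.35 for Csn3, -1.72 for Csn2 and -1.32 for Csn1s2a.

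The regulators of the programme did not all follow the caseins. Elf5, a transcription factor of the luminal progenitor and alveolar cell, had a log2 ratio of 5.96 in tumor 323, 4.71 in tumor 307 and 4.21 in tumor 594, close to the 5.33 to 5.85 of adenocarcinomas 105, 131, 17 and 85. It was 1.44 in tumor 470, 1.19 in 323 lung and -0.04 in 307 lung. Tumor 323 therefore had the highest Elf5 ratio of all 10 with Csn2 at 0.21 and Csn1s2a at 0.05. The Elf5 difference was -1.58 (SE 1.28, limma adjusted p = 0.753) between sarcomatoid tumors and adenocarcinomas, and -4.39 (SE 1.26, limma adjusted p = 0.561, unadjusted 0.00709) between lung and mammary sarcomatoid tumors.

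Ehf, an epithelial factor of the same Ets family, was lower in sarcomatoid tumors by -1.62 (SE 0.80, limma adjusted p = 0.555), a difference that did not pass the test. Prlr, Stat5a and Stat5b are added as the receptor and transducers of prolactin, and were chosen after their values were seen. Prlr was raised in tumors 131 (1.62), 17 (1.35) and 85 (1.43) and lay between -0.11 and 0.26 in the other 7, tumor 105 included. Stat5a was at 0.75 to 1.55 in the 4 adenocarcinomas other than 470 and at -0.75 to 0.53 elsewhere, a group difference of -0.86 (SE 0.32, limma adjusted p = 0.443). Stat5b differed by -0.75 (SE 0.29, limma adjusted p = 0.449).

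**Figure D4:**
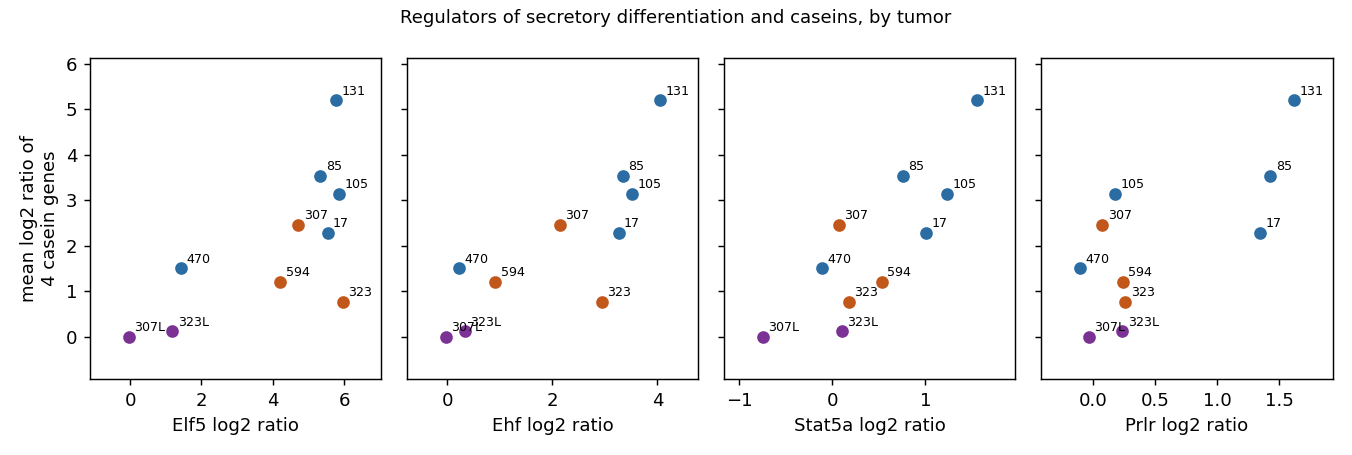
Mean log2 ratio of the 4 casein genes (vertical axis) against the log2 ratio of Elf5, Ehf, Stat5a and Prlr (horizontal axes) in each tumor, with adenocarcinomas in blue, mammary sarcomatoid tumors in orange and lung tumors (L) in purple. Tumor 323 has an Elf5 ratio of 5.96 with a casein mean of 0.77, and tumor 105 has a casein mean of 3.15 with Prlr at 0.17.

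Over the 17 genes of the prolactin pathway and its secretory regulators, 0 passed the adjusted threshold, 11 had a lower mean in sarcomatoid tumors and the median log2 difference was -0.69. At the other end of that list were the oestrogen receptor Esr1 (0.79) and the glucocorticoid receptor Nr3c1 (0.45), both above 0. In lung against mammary sarcomatoid tumors 15 of the 17 were lower, with a median of -0.43 and none past the threshold.

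Of 12 other milk protein genes, 10 had a lower mean in sarcomatoid tumors, the median log2 difference was -0.66 and none passed the adjusted threshold. Lcn2, the iron-carrier binding protein, differed by -1.85, and Folr1, a folate receptor found in milk, by -1.19, with a log2 ratio of 3.54 in tumor 131 and -0.73 to 0.89 elsewhere. Spp1, osteopontin, ran the other way at 1.28, being lowest in tumor 131 (-5.03). Csn1s2b, the remaining calcium-sensitive casein gene on the array, was not well above background on any array.

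Of 18 genes of milk fat and lactose synthesis, 13 had a lower mean in sarcomatoid tumors, with a median log2 difference of -0.24 and none past the threshold. Aldoc, an aldolase, differed by -1.71 with 3.03 in tumor 131 and 2.58 in tumor 85, and Cidea, a lipid droplet protein that adipocytes also make, by -1.64 with 5.65 in tumor 105. Adipocyte genes were highest in tumor 105 as well, at a mean of 3.90 over 8 genes against 0.23 to 2.36 in the other tumors, and their part in the Cidea value was not tested. At the other end were Slc35a2, the Golgi carrier of UDP-galactose (0.38), and the fatty acid carrier Cd36 (0.12). Of 4 ion transporters of milk secretion 3 had a lower mean, none passed the threshold, and the chloride carrier Slc12a2 (-1.28) was raised in tumors 131 (2.25) and 85 (2.81). Atp2b2, the calcium pump of the apical membrane, differed by -0.34, Slc5a5, the iodide carrier, by -0.11 and Slc34a2, a phosphate carrier, by 0.09.

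Epithelial content and casein level went together in part over the tumors. Both means were lowest in 323 lung (epithelial -1.20, casein 0.12) and 307 lung (-1.20 and 0.00). The highest casein means, in tumors 131, 85 and 105, were in adenocarcinomas with high epithelial means. The order was not the same throughout. The mean over 16 epithelial genes was 3.21 in tumor 105, 2.84 in tumor 131, 2.82 in tumor 17 and 2.79 in tumor 85, and -0.82 in tumor 470, whose casein mean of 1.51 was above that of tumors 323 and 594. Tumors 105, 131, 17 and 85 are set together here for their high epithelial means. The narrow span of that mean among these 4, 0.42 on the log2 scale, follows in part from this choice. Their casein mean spanned 2.91, and Wap, Lalba and Glycam1 were not shared. Tumors 323 and 307 had nearly the same epithelial mean, 1.39 and 1.30, with casein means of 0.77 and 2.46. The part of epithelial content in the casein differences was not tested.

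By the rule for likeness, the 5 genes whose log2 ratios most resembled the mean standardised casein pattern over the 10 arrays, among 16046 genes measured on at least 5, included Ppp1cb (r = 0.97), Golph3 (0.96), Acot1 (0.96) and Cracr2b (0.96). The ratios of these 4 were highest in tumor 131, as the pattern was, with Acot1 at 3.32 there and at -2.63 in 323 lung. These correlations are across 10 arrays that share a reference and include 2 pairs of 1 tumor origin, and are given as a description.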

How the data were processed

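The scanner files were deposited as the array maker's Feature Extraction software wrote them, with spot intensity in a red and a green channel, background and quality flags. The authors also deposited a normalized table of log2 ratios, made with limma by steps not given in the sources used here, and it served as an alternative. Median intensities were corrected with limma 3.58.1 in R 4.3.3 (normexp, offset 50) and normalized by loess within each array. Control spots were left out, outlier spots (0.228% to 0.576% per array) were dropped, and spots of a probe were averaged. Between 52.2% and 83.0% of probes per array were well above background in red, and the number of arrays limits the precision.

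Probes were named from the accession, symbol or synonym in the files through the RefSeq gene table (32709 of 41174 probes). Coordinates are those of build mm7 in the scanner file of tumor 323, and the headers of 5 arrays name mm7 and those of 5 name mm8. All 9 members were reported, each by its brightest probe (highest mean signal over both channels and 10 arrays). Other lists are given by counts and medians, with the 2 lowest and 2 highest log2 differences named where none passed the threshold. Of the 5 genes most like the caseins, 1 is not reported here. The members and lists were chosen with earlier results of these data known.

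Sarcomatoid tumors were compared with adenocarcinomas with limma (lmFit and eBayes), with group as the only term. Lung was set against mammary sarcomatoid tumors in a model with a mean for each of 3 groups. Tests were two-sided with Benjamini-Hochberg adjustment over all 41174 probes and a threshold of 0.05. Single members were also compared by an exact permutation test over samples. Nothing in the labels says how tumors of a group were sampled beyond their numbers. The numbers given to replicates follow the order of deposit and pair no samples. Arrays read with the same version of the extraction protocol form a scan batch. The model fit was checked on simulated data. A fold is given as a bound where no array of a group was well above background. It sets the brighter group's mean red log2 signal, after loess and scaling of the channel averages between arrays, against the higher of the probe's own signal and the lowest signal well above background on each dim array. Such single-channel values are open to dye bias, since no dye-swapped arrays were identified.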

Additional observations from a re-analysis of the deposited data

Results flagged for a closer look

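Single tumors that stood apart from the other samples of their group were sought in 18 sets (9 genes in 2 groups), of which chance would mark about 0.9, and 5 were found. In the adenocarcinomas, tumor 131 stood apart for Wap, at a log2 ratio of 4.47 against -0.07 to 0.13 in the others, and for Lalba, at 3.46 against -0.54 to 0.31. In the sarcomatoid tumors, tumor 307 stood apart for Csn1s2a, at 3.0 against -0.04 to 0.37. Tumor 323, alone in its scan batch, stood apart for Lalba, at -1.53 against -0.39 to 0.07, and its green signal was raised. It passed the rule narrowly, the gap to the next tumor being 0.713 of the full range where 0.71 was needed. Tumor 594 stood apart for Wap, at 0.18 against -0.10 to -0.03, a small difference within a narrow range. The causes were not tested.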

How the results depend on the processing

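Between sarcomatoid tumors and adenocarcinomas the direction of Csn1s1, Csn1s2a, Csn2, Csn3, Lalba, Muc1 and Wap was kept under all 28 alternatives each, and that of Glycam1 under the 27 that gave a value. The Csn1s1 difference ran from -5.94 to -2.59 on the log2 scale (adjusted p from 0.0466 to 0.639) and the Csn3 difference from -4.28 to -1.82 (adjusted p from 0.0821 to 0.721). Leaving out single arrays moved the count of called members between 0 and 1, the 1 being Csn1s1 without tumor 470, and every other alternative gave 0, among them 2 chosen after seeing the data (tumor 470 left out on the authors' table, or together with the lung arrays). Btn1a1 turned sign with the mean over its probes (-0.0193) and with the red channel alone (-0.1762). Between lung and mammary sarcomatoid tumors the count of called members was 0 under every alternative, single arrays left out included. There, with scan batch as a term, Lalba turned to -1.3048 and Btn1a1 to 0.0215, while the lung arrays share a batch with no mammary sarcomatoid array. With the tumor number as a replicate block Muc1 turned to 0.0104 and Wap to 0.0084. Leaving out single arrays turned some signs within narrow ranges, -0.1959 to 0.0144 for Btn1a1, -0.0343 to 0.2305 for Glycam1, -0.2788 to 0.0104 for Muc1 and -0.1203 to 0.0084 for Wap. The tumor number as a replicate block changed no call. The filter on dim probes removed Glycam1 from both comparisons. The exact permutation test gave 1 member below 0.05, Csn1s1, in the scanner values, in the authors' table and with 1 value per tumor number. These settings share the same arrays and are no independent support. The test was run on the members without adjustment for their number, and no share of all probes below 0.05 is at hand. The constant of 50 and the local background limit what dim probes such as Btn1a1, and Csn1s2a or Glycam1 outside their bright tumors, can show.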
